A study of Homo sapiens with 6 samples.

Results

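The genes described here carry an MRPL or MRPS symbol, which names proteins of the mitochondrial ribosome, and MRPS36 is counted by symbol alone. They were taken from the deposited expression table by symbol, as every gene whose symbol begins with MRPL or MRPS and a number, one row per Ensembl ID, without the 2 antisense genes that match (MRPL20-AS1 and MRPS9-AS2). This gave 75 of the 18164 distinct genes in the table. The symbol rule itself uses no expression value. By subunit, 50 of the 75 belong to the large subunit and 24 to the small one, and MRPS36 was assigned to neither; MRPL53, MRPS5 and MRPS24 were not analysed here.

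Mitochondria carry their own small genome, whose mRNAs encode core subunits of the respiratory chain and of ATP synthase. A dedicated ribosome translates them. Its 2 rRNAs are transcribed from the mitochondrial genome, whereas all of its proteins are encoded in the nucleus, made in the cytosol and imported. Some of these proteins descend from ribosomal proteins of bacteria, and others were added during the evolution of mitochondria and have no bacterial counterpart.

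RNA-seq was done on HEK293, an established human embryonic kidney line, here a commercial line kept in suspension. In the transfected group the cells had received a 2-plasmid system with a polymer reagent for the synthesis of adeno-associated virus (AAV) and were harvested 18 h later, in 3 libraries. In the untransfected group, also 3 libraries sampled at that time, PBS took the place of both the DNA and the reagent, so the effect of the reagent and that of the plasmids cannot be told apart. Both groups are the same HEK293 line, and AAV production itself was not measured in these files. The replicates are numbered 1 to 3 in each group, and nothing in the labels says that they came from separate cultures. The p-values therefore reflect only how the 6 libraries vary, and part of that may be technical. Values are TPM (transcripts per 1000000), an abundance corrected for transcript length and scaled to a fixed total for each library. TPM keeps no record of read number, so the depth of the libraries is unknown. Because the total is fixed, a gene's TPM also depends on how much of the total other genes take, and in bulk RNA fewer cells expressing a gene and less of its RNA per cell cannot be told apart.

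Across the whole table, 16145 genes reached 1 TPM in at least 3 of the 6 libraries and were tested with limma on log2(TPM + 1). Of these, 3236 (20%) were higher in transfected cells and 1644 (10.2%) were lower at an adjusted p of at most 0.05. Without transfected replicate 2 these counts were 1820 and 965, and without transfected replicate 3 they were 1873 and 1093. Leaving out untransfected replicate 1 or 2 gave 1034 or 1086 lower. The same count was 2789 to 3232 under 3 other scalings and a GC and length correction. Of 9 genes fixed as HEK293 markers, 8 reached the filter, with a summed level of 921.3 to 928.6 TPM in transfected libraries and 714.0 to 768.1 TPM in untransfected libraries, and LHX1 was below 1 TPM throughout. Among endothelial markers only KDR was in the table (0.42 to 0.84 TPM). Fibroblast markers, 5 of 7 in the table, summed to 22.9 to 26.0 TPM in transfected and 28.5 to 33.1 TPM in untransfected libraries, with DCN lowest at 0.12 to 0.27 TPM. The marker sums of HEK293 and fibroblasts differed between groups without overlap, and their part in the results was not tested.

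Within each group 1 library was lowest for most mitochondrial ribosomal proteins, and its median deviation was also lowest over all tested genes. Untransfected replicate 3 had the lowest TPM of its group for 65 of the 75 genes, and transfected replicate 1 had the lowest of its group for 47. In the transfected group, replicate 3 had the highest TPM for 40 of the 75, so replicate 1 was not alone in lying off the middle. The same share over all tested genes was not counted. In untransfected replicate 3 the median log2 deviation from the group mean was -0.13 for the 75 genes and -0.08 over all tested genes. In transfected replicate 1 it was -0.05 and -0.04. These libraries also had the highest share of TPM in the 13 mitochondrially encoded mRNAs of their group: 36.4% in untransfected replicate 3 against 31.2% and 30.0% in replicates 1 and 2, and 30.0% in transfected replicate 1 against 27.6% and 27.1% in replicates 2 and 3. The main counts are therefore given with and without this pair of libraries.

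As a group, mitochondrial ribosomal protein genes were more often higher than lower in transfected cells, by small amounts. All 75 passed the filter and were tested. Of them, 34 were higher and 2 (MRPL43 and MRPL55) were lower, against 20% higher and 10.2% lower among all tested genes. The median log2 fold of the 75 genes was 0.19, a 1.14-fold difference, beside 0.05 over all tested genes. Of the 39 genes that did not pass, 27 had a positive and 12 a negative log2 fold, and 6 had an unadjusted p under 0.05. The 34 higher genes had a median log2 fold of 0.43 (1.34-fold), the smallest of them 0.19, with adjusted p from 0.000107 to 0.0395. None of the 75 (0) changed by 2-fold or more, the extremes being -0.26 for MRPL41 and 0.92 for MRPL58. All 3 transfected values lay above all 3 untransfected values for 39 genes and below them for 4, where 29.2% and 17.3% of all tested genes did so, and the groups overlapped for the other 32.

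**Figure D1:**
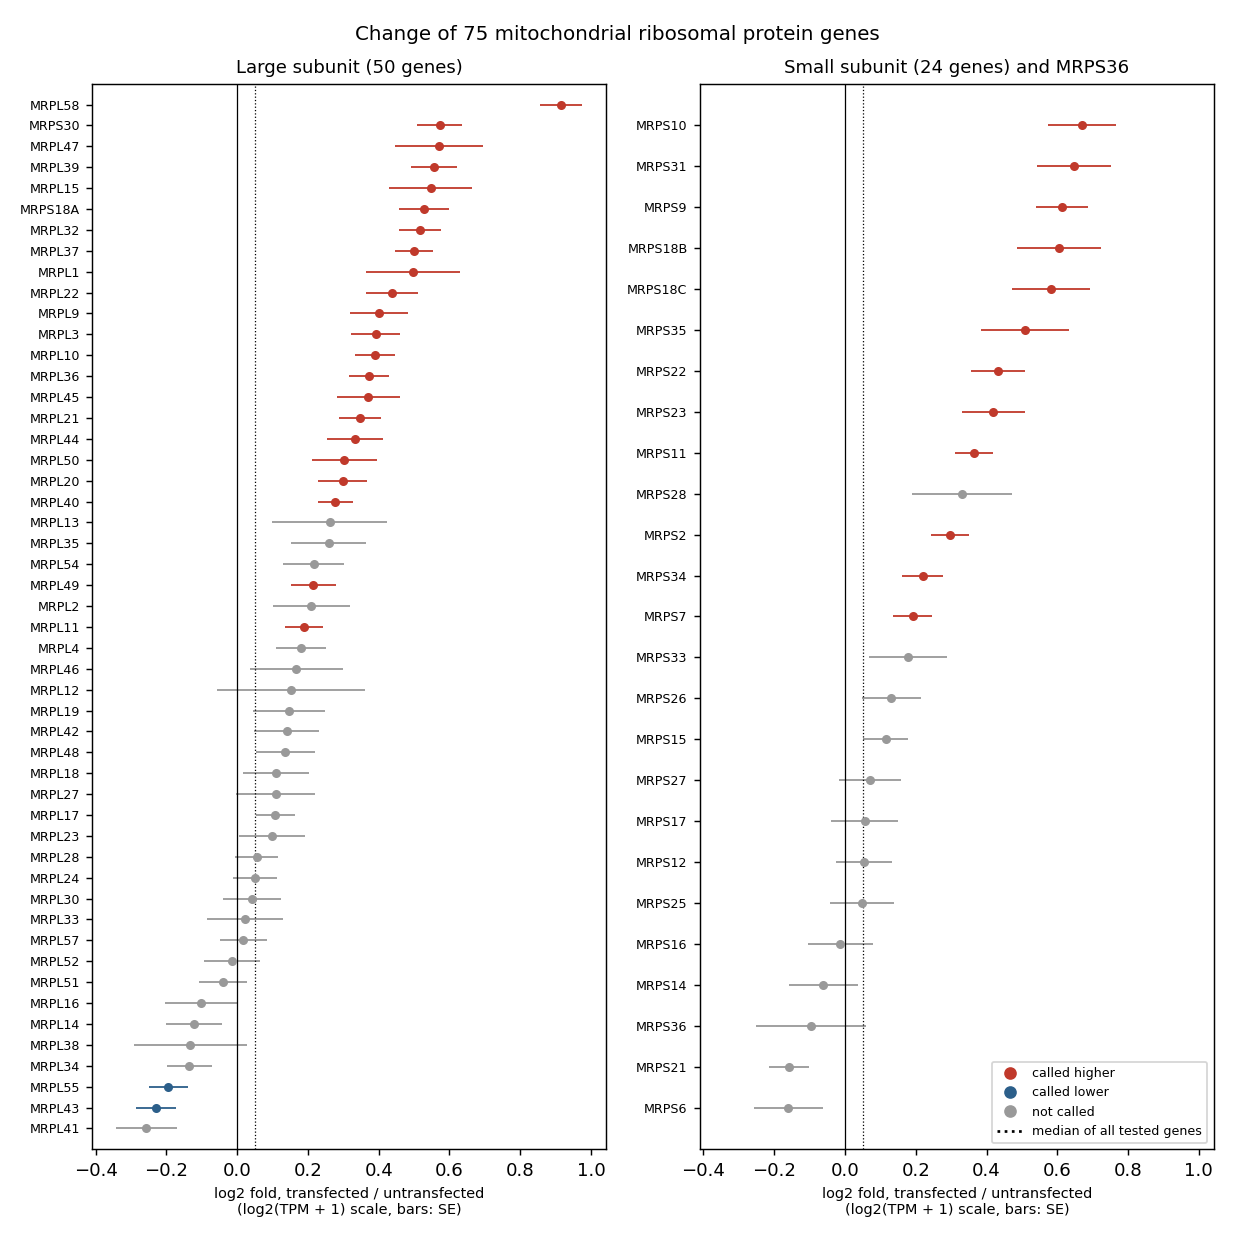
Log2 fold of each of the 75 genes, transfected over untransfected, on the log2(TPM + 1) scale (x axis), with large subunit genes on the left and small subunit genes and MRPS36 on the right. Points are limma estimates from 3 libraries per group and bars their standard errors; red and blue mark genes called higher (34) and lower (2), and the dotted line is the median of all tested genes at 0.05. Most points lie to the right of that line, and MRPL58 stands farthest from it.

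These counts shifted with the libraries and the scaling used. Without transfected replicate 1 and untransfected replicate 3 together, 35 genes were higher and 6 lower, with a median of 0.16. Leaving out transfected replicate 1, 2 or 3 gave 31, 23 or 24 higher and 1, 0 or 1 lower. Leaving out untransfected replicate 1, 2 or 3 gave 29, 32 or 33 higher and 0, 1 or 6 lower. Median-ratio scaling gave 30 higher and 6 lower, quantile normalization and rescaling without the mitochondrially encoded and 20 most abundant genes each gave 30 and 8, and the GC and length correction gave 39 and 7. No gene higher in the main test was called lower under any of the 17 alternatives (0 of 34), and 23 of the 34 kept their call under all of them. Across these alternatives the median of the 75 genes stayed above that of all tested genes, by 0.12 to 0.18 on the log2 scale, against 0.14 in the main test.

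Summed over the 75 genes, the level was 7921, 8166 and 8343 TPM in transfected replicates 1 to 3, and 7064, 7119 and 6375 TPM in untransfected replicates 1 to 3. All transfected sums were above all untransfected ones, and untransfected replicate 3 was lowest. The means were 8144 ± 212 and 6853 ± 414 TPM (SD, n = 3 each), a ratio of 1.19, or 0.81% and 0.69% of all TPM. The 13 mitochondrially encoded mRNAs took 28.2% ± 1.58 of TPM in transfected libraries and 32.6% ± 3.40 in untransfected libraries (SD, n = 3 each), with overlap between the groups. When the sum was expressed per 1000000 TPM of genes not encoded in the mitochondrion, it was 11581, 11510 and 11650 in transfected and 10445, 10366 and 10222 in untransfected replicates 1 to 3. On this scale the libraries of a group lay closer together, and the ratio of means was 1.12. Large and small subunit genes kept nearly the same proportion, with a ratio of summed TPM of 2.36, 2.39 and 2.41 in transfected and 2.36, 2.38 and 2.31 in untransfected replicates 1 to 3, which overlapped.

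**Figure D2:**
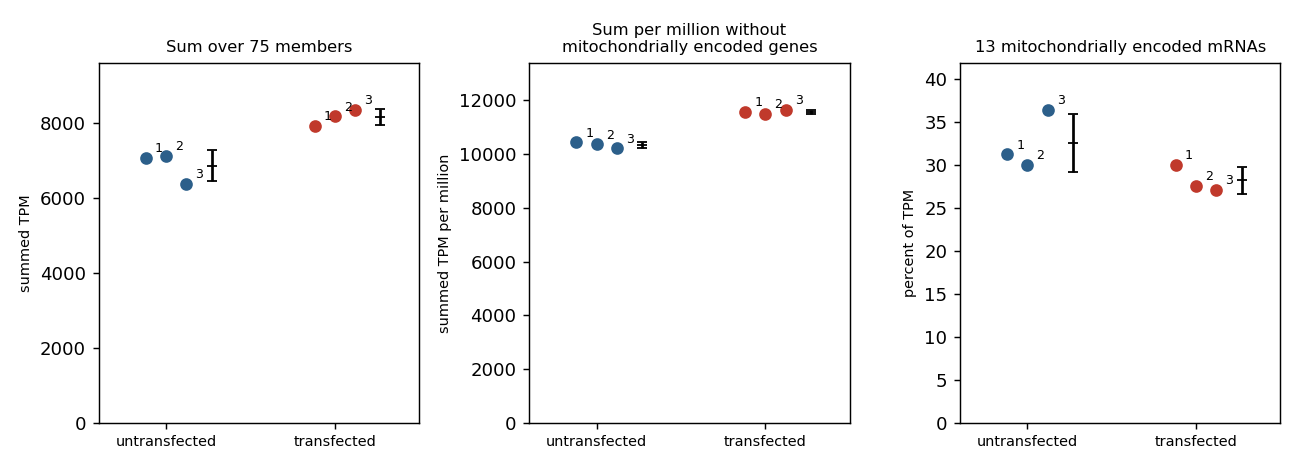
Left, TPM summed over the 75 genes; middle, the same sum per 1000000 TPM of genes not encoded in the mitochondrion; right, percent of TPM in the 13 mitochondrially encoded mRNAs. Each numbered point is 1 library, with the mean and SD of the group beside it; the first pair of panels separates the groups (6375 to 7119 against 7921 to 8343 TPM on the left), whereas the mitochondrial share overlaps at 30.0%.

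By class, 22 of the 50 large subunit genes were higher and 2 lower (median log2 fold 0.20), and 12 of the 24 small subunit genes were higher and 0 lower (0.21; with 4 of the 24 negative but not passing in limma). Of the 44 genes with a bacterial counterpart, 18 were higher and 1 lower (0.18), and of the 30 without one 16 were higher and 1 lower (0.22). MRPS18A and MRPS18B, relatives of bacterial S18 that sit elsewhere in the ribosome, were counted among the 30. The 10 small subunit genes without a bacterial counterpart all had positive log2 folds, from 0.05 to 0.65 with a median of 0.32, and 6 passed. The higher count without transfected replicate 2 was 14 for the large subunit and 10 for genes without a bacterial counterpart. No test of the difference between these classes was made.

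The largest difference was at MRPL58 (ENSG00000167862, chr17:75012670-75021261 on GRCh38, plus strand), a member of the central protuberance that resembles a release factor and can hydrolyse peptidyl-tRNA on stalled ribosomes. It was at 197.2, 187.3 and 189.7 TPM in transfected libraries and 103.0, 105.9 and 94.4 TPM in untransfected replicates 1 to 3. The 3 transfected values were close together and far above all untransfected ones. The log2 fold was 0.92 (SE 0.061, limma adjusted p = 0.000107), equal to 1.89-fold, and 0.77 to 0.95 over the alternatives. The other genes listed for the central protuberance, the part of the large subunit that faces the head of the small one, had smaller log2 folds. MRPL40 was higher (201 ± 2.78 against 166 ± 3.53 TPM, SD, n = 3; log2 fold 0.28, limma adjusted p = 0.0048), whereas MRPL18, MRPL27, MRPL38, MRPL46 and MRPL48 did not pass, at -0.13 to 0.17. Thus 2 of 7 were higher and 0 lower, with a median of 0.14.

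Promoter sequences of 5 genes are shown: MRPL58, MRPS10 and MRPS31, with the 3 largest log2 folds, and the 2 genes called lower. Each runs from 250 bases before to 50 bases after the start in RefSeq on GRCh38.p14, at chr17:75012420-75012719 (plus strand, MRPL58), chr6:42217812-42218111 (minus strand, MRPS10), chr13:40771141-40771440 (minus strand, MRPS31), chr10:100987448-100987747 (minus strand, MRPL43) and chr1:228109250-228109549 (minus strand, MRPL55). Capitals mark matches on either strand to the ETS motif CCGGAAG, the YY1 motif AANATGGCG, the NRF1 motif GCGCANGCG (N being any base), the E-box CACGTG and the CCAAT box CCAAT.
MRPL58: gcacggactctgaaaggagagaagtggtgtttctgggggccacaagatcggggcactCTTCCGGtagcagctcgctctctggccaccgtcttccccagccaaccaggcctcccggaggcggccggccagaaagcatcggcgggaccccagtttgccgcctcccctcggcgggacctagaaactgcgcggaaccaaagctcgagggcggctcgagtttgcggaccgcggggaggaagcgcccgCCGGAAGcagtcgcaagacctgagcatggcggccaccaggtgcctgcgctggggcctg
MRPS10: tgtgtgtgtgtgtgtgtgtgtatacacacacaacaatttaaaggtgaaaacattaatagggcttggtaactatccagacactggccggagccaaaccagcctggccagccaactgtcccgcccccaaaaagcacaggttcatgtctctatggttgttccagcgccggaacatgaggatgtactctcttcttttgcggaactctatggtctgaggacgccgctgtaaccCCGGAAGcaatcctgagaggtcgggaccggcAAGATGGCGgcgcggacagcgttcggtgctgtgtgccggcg
MRPS31: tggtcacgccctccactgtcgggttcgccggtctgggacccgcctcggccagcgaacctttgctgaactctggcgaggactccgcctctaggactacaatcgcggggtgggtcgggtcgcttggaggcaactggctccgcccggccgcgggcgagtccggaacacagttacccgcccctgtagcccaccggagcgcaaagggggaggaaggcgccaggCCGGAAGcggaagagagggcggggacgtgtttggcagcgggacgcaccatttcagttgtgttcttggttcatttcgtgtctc
MRPL43: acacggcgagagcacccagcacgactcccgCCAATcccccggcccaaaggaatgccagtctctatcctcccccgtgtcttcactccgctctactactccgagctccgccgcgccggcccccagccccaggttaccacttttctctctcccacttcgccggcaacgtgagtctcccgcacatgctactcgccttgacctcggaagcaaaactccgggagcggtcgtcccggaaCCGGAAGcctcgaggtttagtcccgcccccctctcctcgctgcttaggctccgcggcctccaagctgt
MRPL55: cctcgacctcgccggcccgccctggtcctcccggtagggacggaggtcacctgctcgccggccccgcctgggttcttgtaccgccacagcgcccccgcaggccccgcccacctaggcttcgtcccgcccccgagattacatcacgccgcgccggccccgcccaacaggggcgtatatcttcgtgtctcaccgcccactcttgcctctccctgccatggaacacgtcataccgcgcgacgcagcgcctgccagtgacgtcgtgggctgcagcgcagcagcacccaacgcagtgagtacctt
MRPL58 had an ETS match on each strand, MRPS10 an ETS match followed by a YY1 match at the start, MRPS31 an ETS match close to the start, MRPL43 an ETS match close to the start with a CCAAT box farther upstream, and MRPL55 had 0 matches. The promoter of MRPL41, which had a more negative log2 fold than MRPL43 and MRPL55 but did not pass, is not shown. Its window held 4 CCAAT boxes and no other match. ETS motifs are bound by factors that include GABP, and NRF1, GABP and YY1 are known regulators of nuclear genes for mitochondrial proteins.

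The 66 genes with a promoter entry had 81 windows, and 56 of them had a single one. A gene of the family was counted where any of its windows matched. More windows give more chances of a match, and the shares make no allowance for this. Over all 66 genes, the ETS motif was in 29 (43.9%), against 21.7% of 11233 tested genes and 12.2% of all 27305 genes with an entry. The YY1 motif was in 17 (25.8%) against 7.81% of tested genes and 3.85% of all. Most of these matches lay in the 50 bases after the start, and whether they cover the start codon was not examined. Both motifs together were in 4 (6.06%), against 1.85% of tested genes and 0.90% of all. The other motifs were closer to their share among tested genes: the NRF1 motif was in 14 (21.2%, against 16.9% of tested and 9.02% of all genes), the E-box in 9 (13.6%, against 12.4% and 8.77%) and the CCAAT box in 23 (34.8%, against 43.1% and 39.7%). Matches of different motifs did not overlap in these promoters. The NRF1 count depended on the letters: a pattern 1 base longer matched 9 genes (13.6%, against 13.2% of tested genes), and that longer pattern with every letter fixed matched 1 (1.52%, against 2.66%). For YY1 the same changes gave 17 (25.8%, against 5.30%) and 12 (18.2%, against 3.13%). At least 1 of the NRF1, ETS and YY1 motifs was in 48 of the 66 (72.7%), against 39.2% of tested genes. Within the family this share was 77.4% in the 31 higher genes and 68.6% in the 35 others. By motif, ETS was in 12 of the 31 and 17 of the 35, YY1 in 12 and 5, NRF1 in 8 and 6, the CCAAT box in 10 and 13, and the E-box in 7 and 2. These shares are descriptions of the letters in the windows and were not tested.

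Of the 4 genes listed for the head of the small subunit, MRPS10 and MRPS9 were among the 10 largest rises. MRPS7 was higher by a small amount and MRPS14 did not pass. All 4 have a bacterial counterpart, and small subunit genes without one were not assigned to the head or to any other role. The head holds the tRNAs and moves during translocation. MRPS10 (ENSG00000048544, chr6:42206801-42217865, minus strand), the counterpart of bacterial S10, was at 152.6, 175.6 and 176.0 TPM in transfected libraries and 114.2, 110.9 and 91.6 TPM in untransfected replicates 1 to 3. Its log2 fold was 0.67 (SE 0.096, limma adjusted p = 0.0021). MRPS9, the counterpart of S9, was at 198.6, 212.4 and 207.9 TPM in transfected libraries and 140.9, 142.5 and 121.1 TPM in untransfected replicates 1 to 3 (log2 fold 0.61, limma adjusted p = 0.0011). In both genes the groups were separate, and untransfected replicate 3 was lowest. The log2 folds of MRPS7 and MRPS14 were 0.19 and -0.06. The call of MRPS7 was lost under 9 alternatives, among them without any 1 of transfected replicates 1, 2 and 3 or untransfected replicate 1 (highest limma adjusted p = 0.28).

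The 3 human relatives of bacterial S18 occupy different places. MRPS18C took the place of S18 on the platform of the small subunit, MRPS18B is a small subunit protein elsewhere, and MRPS18A belongs to the large subunit. MRPS18A was at 196.7, 181.3 and 214.7 TPM in transfected libraries and 137.7, 139.6 and 131.8 TPM in untransfected replicates 1 to 3. For MRPS18B the values were 61.6, 65.1 and 71.8 against 46.8, 48.5 and 35.2 TPM. For MRPS18C they were 27.1, 32.9 and 32.4 against 22.2, 21.2 and 17.5 TPM. All 3 genes were higher, with log2 folds of 0.53 (MRPS18A), 0.60 (MRPS18B) and 0.58 (MRPS18C), adjusted p of 0.0016, 0.0077 and 0.0061 in limma, and calls kept under all 17 alternatives. Their levels differed widely while their log2 folds were alike. In the annotation 47.0% of the exonic length of MRPS18A and 40.2% of that of MRPS18C lies opposite another gene, RSPH9 and ABRAXAS1, and whether reads were assigned by strand is not given here.

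Of 5 proteins of the small subunit platform, MRPS18C and MRPS11 were higher, the latter at 48.9, 48.2 and 49.4 against 38.1, 38.4 and 36.7 TPM. MRPS15, MRPS6 and MRPS21 did not pass, and the median of the 5 was 0.12. MRPS21, the counterpart of bacterial S21 and the fifth most abundant of the 75, was at 252.3, 255.4 and 270.6 TPM in transfected libraries and 300.3, 288.1 and 280.3 TPM in untransfected replicates 1 to 3, separate and below, but outside the threshold (log2 fold -0.16, limma adjusted p = 0.064). It passed as lower without untransfected replicate 3, without that library and transfected replicate 1 together, under the 3 other scalings and after the GC and length correction. MRPS12, which lines the decoding centre, was at 78.7, 68.4 and 74.8 against 69.9, 77.8 and 65.9 TPM, with overlapping groups (0.05, limma adjusted p = 0.65).

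Small subunit proteins without a bacterial counterpart included MRPS31, at 61.7, 69.9 and 68.3 TPM in transfected libraries and 47.9, 43.5 and 35.8 TPM in untransfected replicates 1 to 3 (log2 fold 0.65, limma adjusted p = 0.0035). MRPS35, MRPS22 and MRPS23 were higher by 0.51, 0.43 and 0.42. The call of MRPS35 was lost without transfected replicate 2 or 3 (highest limma adjusted p = 0.070). MRPS34 was the most abundant of all 75 genes, at 493.4, 465.9 and 452.1 TPM in transfected libraries and 390.4, 401.9 and 418.8 TPM in untransfected replicates 1 to 3. Its groups were separate, but the log2 fold was only 0.22 (limma adjusted p = 0.024), and the call was lost under 9 alternatives, among them the 3 other scalings and without any single library except untransfected replicate 3 (highest adjusted p = 0.26).

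At the end of the tunnel through which the new chain leaves, 5 of 8 large subunit proteins were higher and 0 lower, with a median log2 fold of 0.35. The new proteins of the mitochondrion are mostly membrane proteins, and MRPL45 is known to help tether the ribosome to the inner membrane. MRPL39 was at 244.2, 269.8 and 259.7 TPM in transfected libraries and 182.7, 179.5 and 163.3 TPM in untransfected replicates 1 to 3 (log2 fold 0.56, limma adjusted p = 0.0010). MRPL47, the counterpart of bacterial L29, was at 155.2, 180.3 and 173.4 against 131.0, 121.4 and 92.4 TPM (0.57, limma adjusted p = 0.011). MRPL45 was at 68.7, 77.2 and 79.8 against 58.3, 63.9 and 51.9 TPM (0.37, limma adjusted p = 0.017). Transfected replicate 1 was lowest of its group in these 3 genes, and in none did the groups overlap (0 of 3). MRPL22 and MRPL44 were higher by 0.44 and 0.33, and MRPL17, MRPL23 and MRPL24 did not pass (0.05 to 0.11). The number higher fell to 2 without transfected replicate 2 and to 3 without transfected replicate 3: the calls of MRPL45 and MRPL44 were lost in both cases and that of MRPL47 without transfected replicate 2.

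Around the peptidyl transferase centre, where peptide bonds are formed, 1 of 4 proteins was higher. This was MRPL3, the second most abundant of the 75, at 447.9, 481.3 and 476.5 TPM in transfected libraries and 371.3, 374.0 and 326.8 TPM in untransfected replicates 1 to 3 (log2 fold 0.39, limma adjusted p = 0.0047). MRPL2, MRPL4 and MRPL16 did not pass, with log2 folds of 0.21, 0.18 and -0.10. Without untransfected replicate 3 the count was 2 higher (MRPL4 in addition) and 1 lower (MRPL16). At the stalk, which recruits translation factors, MRPL10 (0.39) and MRPL11 (0.19) were higher, MRPL54 did not pass (0.22), and MRPL12, whose product makes up the flexible stalk and is also reported to bind the mitochondrial RNA polymerase, was at 19.1, 13.6 and 9.49 against 12.6, 10.7 and 13.3 TPM. The transfected libraries of MRPL12 ranged more widely, relative to their mean, than those of any other of the 75 genes, and the groups overlapped (0.15, SE 0.21). The call of MRPL11 was lost under 10 alternatives, among them without any single library except untransfected replicate 3 (highest limma adjusted p = 0.48).

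Of the other large subunit proteins, MRPS30, a mitochondrial addition that sits in the large subunit despite its symbol, was at 94.6, 98.3 and 94.3 TPM in transfected libraries and 64.3, 68.3 and 59.9 TPM in untransfected replicates 1 to 3 (log2 fold 0.57, limma adjusted p = 0.00080). MRPL37, also without a bacterial counterpart, was at 413.1, 433.4 and 412.1 against 286.8, 301.8 and 300.7 TPM (0.50, limma adjusted p = 0.00071). MRPL15, the counterpart of bacterial L15, was at 113.9, 134.8 and 139.1 against 93.0, 98.6 and 73.9 TPM (0.55, limma adjusted p = 0.011). In all 3 the groups were separate. MRPL32, MRPL1, MRPL9, MRPL36, MRPL21, MRPL50, MRPL20 and MRPL49 were higher too, by 0.22 to 0.52. Nearest inside the threshold were MRPL50 (0.30, limma adjusted p = 0.040) and MRPL49 (0.22, 0.037), whose calls were lost under 6 and 11 alternatives, both without transfected replicates 2 or 3 and untransfected replicates 1 or 3 and MRPL49 also without transfected replicate 1. The calls of MRPL1 and MRPL20 were lost without transfected replicate 2 or 3.

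**Figure D3:**
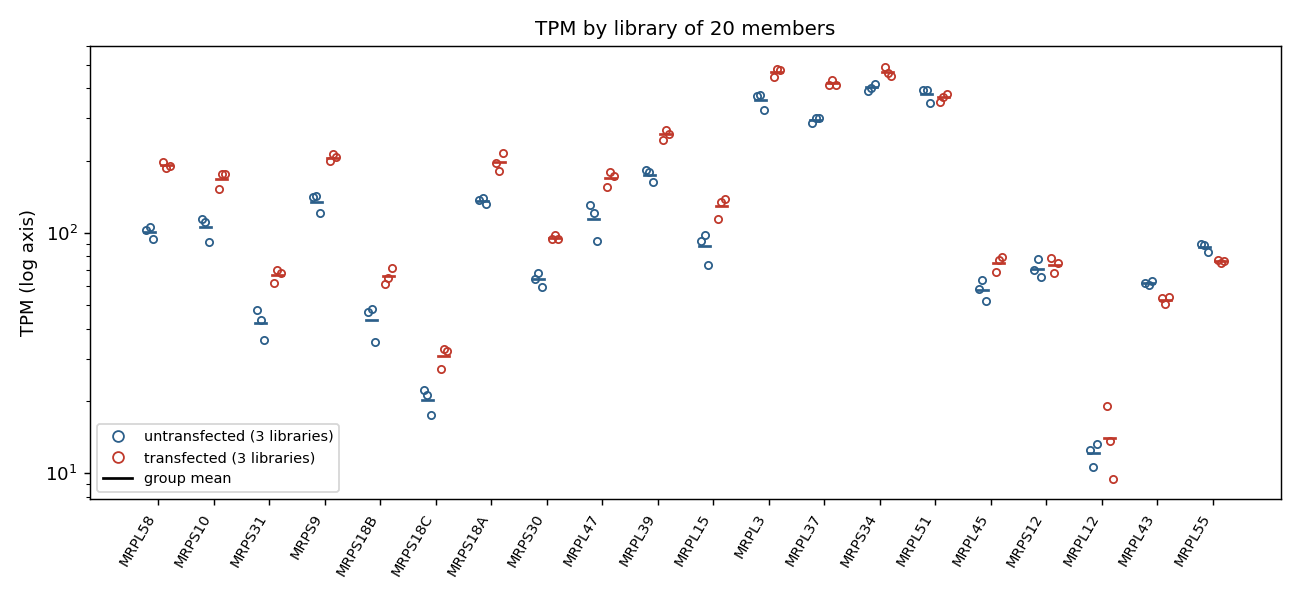
TPM on a log axis of 20 of the 75 genes in each untransfected (blue) and transfected (red) library, with the group mean as a bar. In 17 of the 20 genes the groups do not overlap, with the transfected libraries above in 15 and below in MRPL43 and MRPL55, and in MRPL51, MRPS12 and MRPL12 they overlap.

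Both lower genes belong to the large subunit. MRPL43 (ENSG00000055950, chr10:100969458-100987515, minus strand), without a bacterial counterpart, was at 53.7, 50.5 and 54.2 TPM in transfected libraries and 62.3, 60.6 and 63.3 TPM in untransfected replicates 1 to 3. Its log2 fold was -0.23 (SE 0.056, limma adjusted p = 0.017). MRPL55, the counterpart of bacterial L31 (ENSG00000162910, chr1:228106679-228109312, minus strand), was at 77.5, 74.8 and 76.3 against 89.9, 89.1 and 83.1 TPM, with a log2 fold of -0.19 (limma adjusted p = 0.031). In both genes all transfected values lay below all untransfected ones. These calls rest on few libraries: that of MRPL43 was lost without transfected replicate 2 or 3 or untransfected replicate 1, and that of MRPL55 without any single library except untransfected replicate 3 (highest limma adjusted p 0.072 and 0.12). MRPL41, with the most negative log2 fold of the 75, was just outside the threshold (89.0, 85.7 and 107.1 against 109.4, 116.8 and 109.5 TPM; -0.26, limma adjusted p = 0.057); it passed as lower without transfected replicate 3 and under the 3 other scalings. In the annotation 36.9% of the exonic length of MRPL43 lies opposite SEMA4G and TWNK.

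Levels of the 75 genes spanned 177-fold, compared as TPM, which is corrected for length. The median of their mean TPM was 77.3 (quartiles 42.7 and 124.5), against 15.0 over all tested genes, and 68 of the 75 were above that value. The 4 most abundant were MRPS34, MRPL3, MRPL51 and MRPL37. Of these MRPL51, a large subunit protein without a bacterial counterpart, did not pass, at 352.5, 370.3 and 379.5 against 394.1, 394.6 and 347.1 TPM, with overlapping groups (-0.04; called lower under quantile normalization, rescaling without the most abundant genes and the GC and length correction). MRPS34 and MRPL3 were within each other's spread in transfected libraries (470 ± 21.1 and 469 ± 18.0 TPM, SD, n = 3 each).

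The 4 genes under 10 TPM were MRPS28 (2.32 to 3.55 TPM in transfected libraries and 1.87 to 2.41 in untransfected libraries), MRPL38 (2.29 to 2.89 and 2.03 to 3.38), MRPL46 (3.21 to 4.16 and 2.70 to 3.76) and MRPS17 (6.47 to 7.86 and 6.42 to 7.29). Their groups overlapped and none passed. These 4 share a feature of the annotation: in GENCODE release 29 another gene on the same strand overlaps more than 50% of their coding sequence (53.0% in MRPS28, 94.1% in MRPL38, 64.0% in MRPL46 and 100% in MRPS17). Among the other 71 genes 2 do, MRPL12 (96.0%) and MRPL30 (95.3%), at mean levels of 13.1 and 67.1 TPM. The part of these overlaps in the low values was not tested, and the handling of reads in shared exons is not given in the sources used here. In addition 29 of the 75 genes have exons opposite another gene, and 32 have annotated processed or other pseudogenes, 72 in all, of which 3 are in the table (MRPS31P4, MRPS31P5 and MRPL45P2). Values of genes with such copies are therefore uncertain where reads could be shared.

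The genes are spread over 21 chromosomes. In 29 of them (38.7%) another coding gene starts within 1000 bases on the opposite strand, against 17.4% of 12761 tested coding genes. Of the 27 pairings in which both genes were tested, with MRPL46 and MRPS11 counted from either side, the partner was higher in 9 and lower in 4. Among the 14 with a higher member, the partner was also higher in 2 (OAZ3 beside MRPL9 and PPP1R10 beside MRPS18B), lower in 1 and not called in 11. The lower one was EME2, a DNA repair nuclease subunit whose start lies 52 bases from that of MRPS34, at 18.0 ± 0.479 TPM after transfection and 28.6 ± 1.12 TPM without it (SD, n = 3 each). OAZ3 was at 1.37 ± 0.118 TPM after transfection and 0.61 ± 0.0872 TPM without it (SD, n = 3 each). It thus reached the filter only through the transfected libraries. In the annotation 33.2% of the exonic length of MRPL9 lies opposite OAZ3 and AL589765.7, and the part of this overlap in the OAZ3 values was not tested. MRPL43 was lower while TWNK, the mitochondrial DNA helicase gene 148 bases away, was higher. Among the 14 pairings with a higher member, most differing calls were of partners that did not pass. Among all tested genes 20% were higher and 10.2% lower. Whether the counts of partners differ from these shares was not tested, and no conclusion about close starts is drawn. These partner genes were named after their values were seen.

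Across genes, the log2 fold went with GC content in the family much as it did in general, with a Spearman rho of -0.28 over the 75 genes and -0.24 over 15767 tested genes, and not with transcript length (0.02 in both). Genes are not independent replicates, and these are descriptions that share the same 6 libraries.

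Mitochondrial ribosomal proteins with other names were 5, all tested, of which 2 were higher and 0 lower (median log2 fold 0.24). GADD45GIP1, a large subunit protein, was at 171.5, 173.0 and 175.0 TPM in transfected libraries and 137.2, 137.3 and 127.4 TPM in untransfected replicates 1 to 3 (0.37, limma adjusted p = 0.0022). DAP3, a GTP-binding small subunit protein, was at 93.2, 99.3 and 101.6 against 84.7, 84.6 and 70.8 TPM (0.29, limma adjusted p = 0.028), a call lost without transfected replicate 2 or 3. PTCD3, AURKAIP1 and CHCHD1, all of the small subunit, did not pass, at 0.24, -0.02 and -0.17. Without transfected replicate 1 and untransfected replicate 3 together, PTCD3 was higher too and CHCHD1 lower.

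Factors that build or use the mitochondrial ribosome were described by lists, to be read beside the 20% higher and 10.2% lower among all tested genes. Of 28 tested assembly factors and rRNA-modifying enzymes, 7 were higher and 1 lower (median 0.18; 8 and 2 without transfected replicate 1 and untransfected replicate 3 together), a share of higher genes near that background. MRM3, which methylates the large mitochondrial rRNA, was at 58.1, 60.5 and 56.7 TPM in transfected libraries and 41.0, 37.6 and 33.1 TPM in untransfected replicates 1 to 3 (0.64, limma adjusted p = 0.0014). The GTPase GTPBP10 rose by 0.54, and C1QBP, an abundant matrix protein, was at 729.0, 703.6 and 708.1 against 536.8, 523.0 and 500.3 TPM (0.46, limma adjusted p = 0.0011). All 3 had separate groups and kept their calls under all 17 alternatives. The lower gene was TRMT2B, an RNA methyltransferase (-0.28), named after its value was seen.

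Of 16 tested translation factors, 6 were higher and 0 lower (median 0.27; 9 and 1 without that pair of libraries). The elongation factor GFM1, the release factor MTRF1L and the initiation factor MTIF2 were higher by 0.57, 0.50 and 0.49, at 34.2 ± 2.61, 27.4 ± 1.64 and 134.8 ± 6.38 TPM in transfected libraries and 22.6 ± 2.16, 19.1 ± 0.800 and 96.0 ± 8.28 TPM in untransfected libraries (SD, n = 3 each). Of 12 genes for mitochondrial transcription and genome maintenance, 4 were higher and 0 lower (median 0.22; 5 and 2 without that pair). TWNK rose from 37.5 ± 3.08 to 53.6 ± 1.77 TPM (0.51), the nuclease MGME1 by 0.28 and the single-stranded DNA-binding protein SSBP1 by 0.25. Without transfected replicate 2 or 3 the count was 1, and without untransfected replicate 1 it was 2: the call of SSBP1 was lost without transfected replicate 2 or 3, and that of MGME1 without any 1 of transfected replicates 1, 2 and 3 or untransfected replicate 1. Transcriptional regulators of such genes were higher in 3 and lower in 0 of 9 (median 0.14). The coactivator PPRC1 was at 119.4, 112.8 and 112.7 against 77.7, 76.5 and 79.8 TPM, the factor NRF1 at 25.8, 26.1 and 26.9 against 18.1, 17.3 and 17.6 TPM, and GABPB1, a subunit of GABP, at 21.8, 22.5 and 20.6 against 15.9, 16.7 and 14.0 TPM. In these 3 genes, with log2 folds of 0.55, 0.55 and 0.46, the groups were far apart. GABPA (0.11), YY1 (0.13) and MYC (0.09), a factor known to drive ribosome production, did not pass.

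The transcripts that the mitochondrial ribosome translates are the most abundant of the pathway. Of the 13 mitochondrially encoded mRNAs, 0 were higher and 1, MT-ND4L, was lower (median -0.19). Log2 folds were negative for 11 of the 13. All 3 transfected values lay below all 3 untransfected values for 5 of them and above for 0. Over all tested genes these shares were 17.3% and 29.2%. The most abundant, MT-CO2 and MT-CO3, did not pass, at 50871 ± 4183 and 47477 ± 715 TPM in transfected libraries and 57275 ± 7567 and 54089 ± 1739 TPM in untransfected libraries (SD, n = 3 each). The call of MT-ND4L (-0.38, limma adjusted p = 0.033) was lost under 7 alternatives, among them without transfected replicate 2 or 3 or untransfected replicate 1 or 3. The 2 mitochondrial rRNAs did not pass, with log2 folds of 0.19 for MT-RNR1 and 0.25 for MT-RNR2. The MT-RNR1 values of 3567, 3169 and 2558 TPM in transfected libraries and 2277, 3577 and 2410 TPM in untransfected replicates 1 to 3 overlapped, whereas those of MT-RNR2 (11345, 10962 and 9543 against 8508, 9114 and 9095 TPM) did not. The labels name a total RNA kit and do not say whether mitochondrial rRNA was depleted, so these levels are given as deposited.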

How the data were processed

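Total RNA of 3 transfected and 3 untransfected HEK293 samples was sequenced as stranded 75 nt pairs, per the labels' protocols. The deposited table gives TPM per gene and library, calculated by the authors. The aligner STAR and the build GRCh38 come from the submitters' processing notes. What counted the reads, whether by strand, on which annotation and with which selection of genes is not given in the sources used here. TPM summed to 1000000 per library within rounding. Of 18298 rows, 134 repeated an Ensembl ID with identical values and were dropped.

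The 16145 genes that reached 1 TPM in 3 or more of the 6 libraries were compared on log2(TPM + 1) with limma 3.58.1 in R 4.3.3 (group as the only term, empirical Bayes with a mean-variance trend, two-sided, Benjamini-Hochberg over all tested genes, threshold 0.05). The code was tested on simulated data. Folds on this scale understate the change of genes with low TPM. Overlaps, partner genes and pseudogenes came from GENCODE release 29 on GRCh38, and promoters from RefSeq on GRCh38.p14, with an entry for 66 of the 75 genes. Subunit classes, roles and related lists were written from textbook knowledge.

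Genes were named by a rule: the 10 largest positive and up to 10 largest negative folds that passed, the 4 highest and 4 lowest levels, 8 genes by role, the 2 nearest to the threshold on each side, the 5 proteins with other names, and up to 3 genes that passed from each related list (the 2 most abundant where fewer than 2 passed); other genes are named to account for counts. The members follow a symbol rule that reads no expression value, but the choice of this family, and of the lists, motifs and alternatives, was made with earlier results of these data known. The NRF1 and YY1 patterns were shortened and given an open base after their matches had been seen, and the counts with the earlier patterns are given beside them. The 17 alternatives were pseudocounts of 0.1 and 5 TPM, no filter and a filter of 5 TPM, 3 scalings, removal of GC and length trends, a fit with no variance trend, a replicate block, and omission of single libraries or 1 pair.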

Additional observations from a re-analysis of the deposited data

How the results depend on the processing

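Among the 75 genes the number lower was 2 and became 6 with median-ratio scaling, 8 with quantile normalization, 8 without the mitochondrially encoded and 20 most abundant genes, 7 with the GC and length correction, 1 without the variance trend, 6 without transfected replicate 1 and untransfected replicate 3 together, and 0 to 6 when single libraries were left out. Their median log2 fold was 0.10 without the mitochondrially encoded and 20 most abundant genes. Among all tested genes the number lower was 2789, 2887, 3232 and 3130 under the first 4 of these settings, and leaving out single libraries gave 1820 to 2955 higher and 965 to 2027 lower. In the related lists, with 2 lower, the count was 1 with no filter, 6, 5, 7 and 6 under the same 4 settings, 8 without the pair of libraries and 1 to 4 without single ones. AURKAIP1 changed sign with the GC and length correction, to 0.13 (limma adjusted p = 0.022). The cause of these changes was not tested.

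Deviations from the group means correlated at -0.18, 0.11 and -0.16 between the groups for replicate numbers 1, 2 and 3. Not every library correlated best with its own number. Deviations within a group of 3 are tied to each other, so they cannot decide whether equal numbers mark a shared culture or batch. With the replicate number as a block, 29 of the 75 genes were higher and 0 lower, and 0 genes of the related lists were lower. It ended the calls of MRPL43, MRPL55, MRPL50, MRPS34, MRPL49, MRPS7 and MRPL11 and changed no other call among the 75 genes.

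With 3 libraries a group and no read numbers, counting error cannot be separated from other variation, and small folds near the threshold are the least certain.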

Other observations

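Symbols close to the family but outside it were looked at in the same table. The antisense gene MRPL20-AS1 was at 59.3, 54.7 and 62.0 TPM in transfected and 65.0, 63.9 and 65.5 TPM in untransfected replicates 1 to 3, all transfected values being below, and did not pass in limma (log2 fold -0.14, adjusted p = 0.12), whereas MRPL20 itself was higher. MRPS9-AS2 (1.34 to 2.63 TPM over the 6 libraries) did not pass, and neither did the pseudogenes MRPS31P4 (0.35 to 1.42 TPM) and MRPS31P5 (0.91 to 1.34 TPM), whose levels are small beside those of MRPS31. The pseudogene MRPL45P2 (ENSG00000228782) was at 8.97, 10.4 and 10.1 TPM in transfected and 9.5, 9.39 and 6.20 TPM in untransfected replicates 1 to 3, with overlapping groups, and did not pass (log2 fold 0.23, limma adjusted p = 0.29); MRPL45 itself was at 51.9 to 79.8 TPM. The values of MRPL20 and MRPL20-AS1 cannot be told apart fully if reads were counted without strand.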
